A study of Mus musculus with 8 samples.

Results

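The genes described here encode chemokines, the small secreted proteins that attract leukocytes, and the receptors with which lymphocytes read them and home to tissues. A list of 35 such genes was taken by symbol, 19 of receptors and 16 of chemokines, and each had at least 1 probe set on the array. They were 35 of the 18193 genes measured, and 53 of the 45037 probe sets that were not array controls. The measurements came from 8 Affymetrix Mouse Genome 430 2.0 arrays of total RNA, 2 for each of 4 groups of CD4 T cells of the C57BL/6 strain. The groups were RORγt-deficient cells with digoxin, RORγt-deficient cells with DMSO, wildtype cells with digoxin and wildtype cells with DMSO. All 4 groups started from naive cells, sorted by flow cytometry, which were grown on antibodies to CD3 and CD28 in conditions that drive Th17 differentiation and collected after 48 h. RORγt is the nuclear receptor that directs the Th17 programme, digoxin is a cardiac glycoside that inhibits the sodium-potassium pump and also antagonises RORγt, and DMSO is its solvent. The dose of digoxin and the allele behind the deficiency are not given in the sources used here. No check of the genotypes on the RORγt gene was made, since it was not analysed here.

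Chemokine receptors couple to inhibitory G proteins, and a cell carrying one moves up the gradient of its ligand. The receptor set of a helper T cell changes with its lineage. Th17 cells typically carry Ccr6, whose ligand Ccl20 is made by inflamed epithelium and by Th17 cells themselves, Th1 cells carry Cxcr3, Th2 and regulatory T cells carry Ccr4 and Ccr8, and naive and central memory cells keep Ccr7, which admits them to lymph nodes. Gpr15 and Ccr9 direct T cells to the large and small intestine. Ligand genes are often induced by T cell activation itself.

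The deposited log2 values of each gene were differences from the mean of its wildtype DMSO arrays, so that group averaged 0 for every gene and absolute levels were not kept. The level before centring could still be placed in 1 of 3 ranges from the binary precision of the numbers, taking the array with the lowest value and the 1 probe set that stood for each gene. Of the 35 genes, 5 lay at 8 or above on the log2 scale, namely Ccr6, Cxcr3, Ccr7, Cxcr4 and Gpr183, 19 lay between 4 and 8, and 11 lay below 4, which is the low end of the scale. Cxcl12 was among the 11, although another of its 3 probe sets lay at 8 or above. Shares in these ranges were 14.3%, 54.3% and 31.4% of the chemokine and receptor genes, against 20.3%, 47.4% and 32.3% of all genes. All 8 measured CD4 T cell markers lay at 8 or above, and none of the markers of myeloid, B, NK, CD8 or gamma delta T cells did. Medians over genes lay between -0.004 and 0.02 on the 8 arrays. Since whole cultures were measured, fewer cells of a type and less RNA per cell cannot be told apart in any result below.

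Promoter sequences are shown for the receptor and ligand genes on either side of the main contrast, Ccr6 and Ccl20, which were lower without RORγt or with digoxin on every array compared, and Gpr15 and Cxcr3, which were higher. Each runs 5′ to 3′ on the gene's strand from 250 bases before the RefSeq start to 50 bases after it, in the mouse build GRCm38.p6. Capitals mark the core of the ROR response element (TAGGTCA or TGGGTCA) or the nuclear receptor half-site it contains (AGGTCA), read on either strand. The Ccr6 window lies on the plus strand at chr17:8235793-8236092, that of Ccl20 on the plus strand at chr1:83116516-83116815, that of Gpr15 on the minus strand at chr16:58718823-58719122 and that of Cxcr3 on the minus strand at chrX:101734098-101734397.
Ccr6: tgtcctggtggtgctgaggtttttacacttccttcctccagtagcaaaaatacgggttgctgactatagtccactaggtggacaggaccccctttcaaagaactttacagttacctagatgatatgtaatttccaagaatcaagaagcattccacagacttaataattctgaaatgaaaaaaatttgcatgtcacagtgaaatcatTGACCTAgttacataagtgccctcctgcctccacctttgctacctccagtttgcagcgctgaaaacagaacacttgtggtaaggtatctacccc
Ccl20: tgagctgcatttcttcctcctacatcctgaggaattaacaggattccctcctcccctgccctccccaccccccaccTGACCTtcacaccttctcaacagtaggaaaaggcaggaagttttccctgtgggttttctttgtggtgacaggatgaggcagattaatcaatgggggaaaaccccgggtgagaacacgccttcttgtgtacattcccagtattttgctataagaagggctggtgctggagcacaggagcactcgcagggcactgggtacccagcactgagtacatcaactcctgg
Gpr15: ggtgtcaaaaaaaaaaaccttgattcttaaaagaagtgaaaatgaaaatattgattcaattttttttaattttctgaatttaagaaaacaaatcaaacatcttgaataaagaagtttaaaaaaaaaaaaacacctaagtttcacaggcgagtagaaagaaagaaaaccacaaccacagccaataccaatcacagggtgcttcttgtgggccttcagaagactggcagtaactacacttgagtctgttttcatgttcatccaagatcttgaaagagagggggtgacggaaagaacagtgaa
Cxcr3: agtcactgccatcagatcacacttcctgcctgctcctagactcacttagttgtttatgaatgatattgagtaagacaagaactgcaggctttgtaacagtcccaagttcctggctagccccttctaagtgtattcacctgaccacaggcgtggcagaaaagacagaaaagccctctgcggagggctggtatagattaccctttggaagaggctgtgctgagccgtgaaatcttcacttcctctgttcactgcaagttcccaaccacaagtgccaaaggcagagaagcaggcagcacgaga

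The Ccr6 window held the ROR core on the opposite strand, 44 bases before the start, and a second annotated Ccr6 start had no match. The Ccl20 window held only the half-site, also on the opposite strand and 174 bases before the start, and the windows of Gpr15 and Cxcr3 held neither. A match did not go with lower values in every gene. Cxcr2 held the half-site 5 bases before its start, and Ccl3 the core 187 bases before. They stood 0.76 ± 0.14 and 0.51 ± 0.13 higher in RORγt-deficient digoxin than in wildtype DMSO cells. Promoters were found for 28 of the 35 genes, 32 in all since some genes have several starts. The core was present in 5 of these 32 promoters (15.6%), those of Ccr6, Ccl3, Ccl17, Cxcl9 and Cxcl10, against 6.45% of all 32851 promoters in the RefSeq table. The half-site was present in 8 (25%), those of Ccr6, Ccl20, Ccl3, Ccl17, Ccl22, Ccl25, Cxcl9 and Cxcr2, against 16.3% of all. A form of the NF-kB site, GGGA and TTCC with any 2 bases between them, was present in 4 (12.5%), those of Ccl1, Ccr3, Cxcl2 and Cxcl10, against 1.47%. These are matches of letters in short windows, and binding was not measured.

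RORγt deficiency in DMSO asks what the receptor contributes to the homing genes of Th17 cells. Gpr15 and Ccr7 rose in the deficient cells, and the largest decrease in estimate was that of Ccr6, which missed the threshold. limma called 2 of the 35 genes at a Benjamini-Hochberg adjusted p under 0.05, both higher, where it called 1.05% of all genes and 0.28% as higher. At an unadjusted p under 0.05 there were 6 higher and 2 lower, where 4.25% of all genes were higher and 6.08% lower at this threshold. The deficient and wildtype arrays did not overlap for 12 genes higher and 4 lower, where 20.1% and 21.7% of all genes were separated in these directions. The median difference was 0.05 over the 35 genes and 0.00 over all genes. Both calls ended with quantile normalisation (adjusted p = 0.345 for Gpr15 and 0.430 for Ccr7), in a fit of the compared groups alone (0.0731 and 0.0883), and without any single array of wildtype DMSO, RORγt-deficient DMSO or RORγt-deficient digoxin (0.0555 to 0.221 for Gpr15 and 0.0602 to 0.259 for Ccr7).

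Digoxin in wildtype cells asks what the compound does where RORγt is present. Gpr15 was higher here too, by more than 2-fold. It was the only one of the 35 genes called, where limma called 0.121% of all genes and 0.0715% as higher. This comparison and that of deficiency in DMSO subtract the same wildtype DMSO arrays, so agreement between them is not independent. At an unadjusted p under 0.05 there were 4 higher, Gpr15, Cxcr3, Cxcr2 and Ccl4, and 2 lower, Ccr6 and Ccl20, where 3.61% of all genes were higher and 3.39% lower. Digoxin and DMSO arrays did not overlap for 13 genes higher and 6 lower, where 19.6% and 18.1% of all genes were separated. The median difference was 0.05 over the 35 genes and 0.01 over all genes. The call on Gpr15 ended with quantile normalisation (adjusted p = 0.0754) and without wildtype DMSO replicate 1 (0.0773) or 2 (0.0556).

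Digoxin in RORγt-deficient cells asks what the compound does where its proposed target is missing. None of the 35 genes was called by limma, where it called 0.0055% of all genes, a single one. At an unadjusted p under 0.05 there were 3 higher, Gpr15, Cxcr5 and Xcr1, and 1 lower, Ccr6, where 2.59% of all genes were higher and 0.918% lower. Digoxin and DMSO arrays did not overlap for 7 genes higher and 5 lower, where 17.8% and 10.6% of all genes were separated. The median was 0.02 over the 35 genes and 0.02 over all genes.

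RORγt-deficient cells in digoxin were also set against wildtype cells in DMSO, a comparison added after the data had been seen. Its baseline is the same wildtype DMSO arrays as for deficiency in DMSO and for digoxin in wildtype cells. Gpr15, Cxcr3, Cxcr2 and Ccl4 rose and Ccr6 fell, 4 genes called higher where limma called 0.528% of all genes and 1 lower where it called 1.05%. At an unadjusted p under 0.05 there were 9 higher and 4 lower, where 7.44% of all genes were higher and 7.53% lower, and the median was 0.11 over the 35 genes and 0.03 over all. The groups did not overlap for 15 genes higher and 5 lower, where 27.9% and 21.3% of all genes were separated. With quantile normalisation none of the 35 genes was called, and without RORγt-deficient digoxin replicate 1 or replicate 2 none of these 5 calls held (adjusted p = 0.0517 to 0.279). Without wildtype DMSO replicate 1 the calls on Cxcr3, Cxcr2 and Ccl4 ended (0.098 to 0.138), without wildtype DMSO replicate 2 those on Cxcr3, Cxcr2, Ccl4 and Ccr6 (0.114 to 0.318), and without either RORγt-deficient DMSO array that on Ccl4 (0.057).

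**Figure D1:**
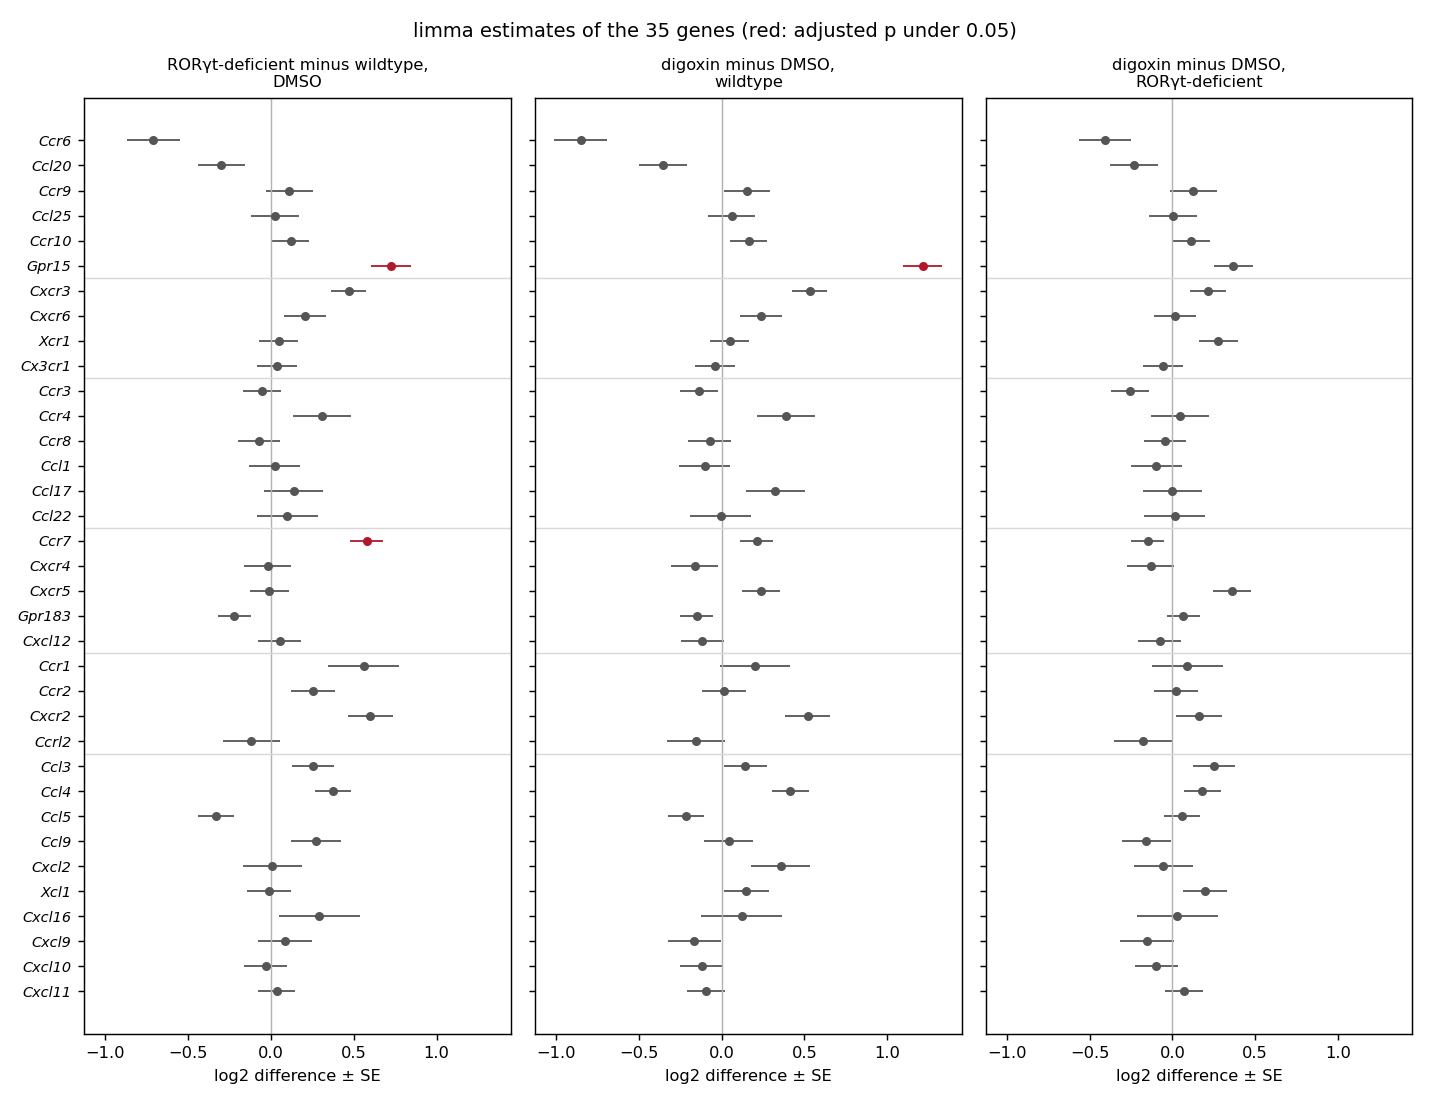
limma estimates of the 35 genes in 3 comparisons, as log2 differences with bars of 1 standard error (n = 2 arrays per group), grouped by role from Th17 and intestinal homing at the top to inflammatory chemokines at the bottom. Red marks the adjusted p values under 0.05, those of Gpr15 and Ccr7 in RORγt-deficient DMSO cells and of Gpr15 in wildtype digoxin cells.

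The genes are taken below by role, with values on single arrays as log2 differences from the wildtype DMSO mean, and with differences as limma estimates ± SE with n = 2 arrays per group. Unless another is named, they are those of the 1 probe set used for each gene. Wildtype DMSO is a shared baseline of 2 arrays. Where all 6 other arrays lay on 1 side of it, the comparisons with it are therefore not independent of one another. Among the 6 genes of Th17 and intestinal homing, Gpr15 encodes a receptor that brings T cells, regulatory T cells among them, to the large intestine. Gpr15 (probe set 1431296_at) stood at 1.13 and 1.06 in RORγt-deficient digoxin cells, 0.86 and 0.60 in RORγt-deficient DMSO cells, 1.14 and 1.29 in wildtype digoxin cells, and 0.03 and -0.03 in wildtype DMSO cells. All 6 arrays that lacked RORγt or had received digoxin lay above both wildtype DMSO arrays, and the wildtype digoxin arrays lay above all others. It rose 1.65-fold in deficient over wildtype DMSO cells (0.73 ± 0.12, adjusted p = 0.022) and 2.32-fold in digoxin over DMSO in wildtype cells (1.21 ± 0.12, adjusted p = 0.00359). In RORγt-deficient digoxin cells it was 2.13-fold over wildtype DMSO cells (1.09 ± 0.12, adjusted p = 0.00293). The further difference with digoxin in deficient cells was 0.37 ± 0.12 and was not called (adjusted p = 1.00, unadjusted p = 0.0118), though the arrays did not overlap.

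Ccr6, the receptor that marks Th17 cells, went the opposite way. Ccr6 (1450357_a_at) stood at -0.96 and -1.27 in RORγt-deficient digoxin cells, -0.57 and -0.85 in RORγt-deficient DMSO cells, -0.74 and -0.96 in wildtype digoxin cells, and -0.14 and 0.14 in wildtype DMSO cells. All 6 arrays outside wildtype DMSO lay below both of that group, and the RORγt-deficient digoxin arrays also lay below both RORγt-deficient DMSO arrays. Only the comparison of RORγt-deficient digoxin with wildtype DMSO cells was called, a fall of 2.17-fold (-1.12 ± 0.16, adjusted p = 0.0097). The estimate was -0.71 ± 0.16 for deficiency in DMSO (adjusted p = 0.0871, unadjusted p = 0.00123), -0.85 ± 0.16 for digoxin in wildtype cells (adjusted p = 0.121, unadjusted p = 0.00033), and -0.41 ± 0.16 for digoxin in deficient cells (adjusted p = 1.00, unadjusted p = 0.0282).

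Ccl20, the ligand of Ccr6, had smaller differences in the same directions. Ccl20 (1422029_at) stood at -0.65 and -0.41 in RORγt-deficient digoxin cells, -0.21 and -0.39 in RORγt-deficient DMSO cells, -0.40 and -0.31 in wildtype digoxin cells, and -0.18 and 0.18 in wildtype DMSO cells. Every array outside wildtype DMSO lay below that group, but the nearest arrays, at -0.21 and -0.18, were close. No difference was called, with estimates of -0.30 ± 0.14 for deficiency in DMSO (adjusted p = 0.519), -0.36 ± 0.14 for digoxin in wildtype cells (adjusted p = 0.687) and -0.53 ± 0.14 for RORγt-deficient digoxin against wildtype DMSO cells (adjusted p = 0.125).

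The small-intestine pair Ccr9 and Ccl25 showed no called difference. Ccr9, the receptor of Ccl25, had its lowest level below 4, and stood at 0.10 and 0.37 in RORγt-deficient digoxin cells, 0.07 and 0.15 in RORγt-deficient DMSO cells, 0.08 and 0.22 in wildtype digoxin cells, and -0.17 and 0.17 in wildtype DMSO cells. The groups overlapped in every comparison, with estimates between -0.04 and 0.24. The estimates of Ccl25 lay between -0.06 and 0.06, and those of Ccr10, which answers to Ccl27 and Ccl28 in skin and mucosa, between -0.05 and 0.23. For Ccr10 the digoxin arrays lay above the DMSO arrays in both genotypes, by 0.12 ± 0.11 in RORγt-deficient and 0.16 ± 0.11 in wildtype cells.

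**Figure D2:**
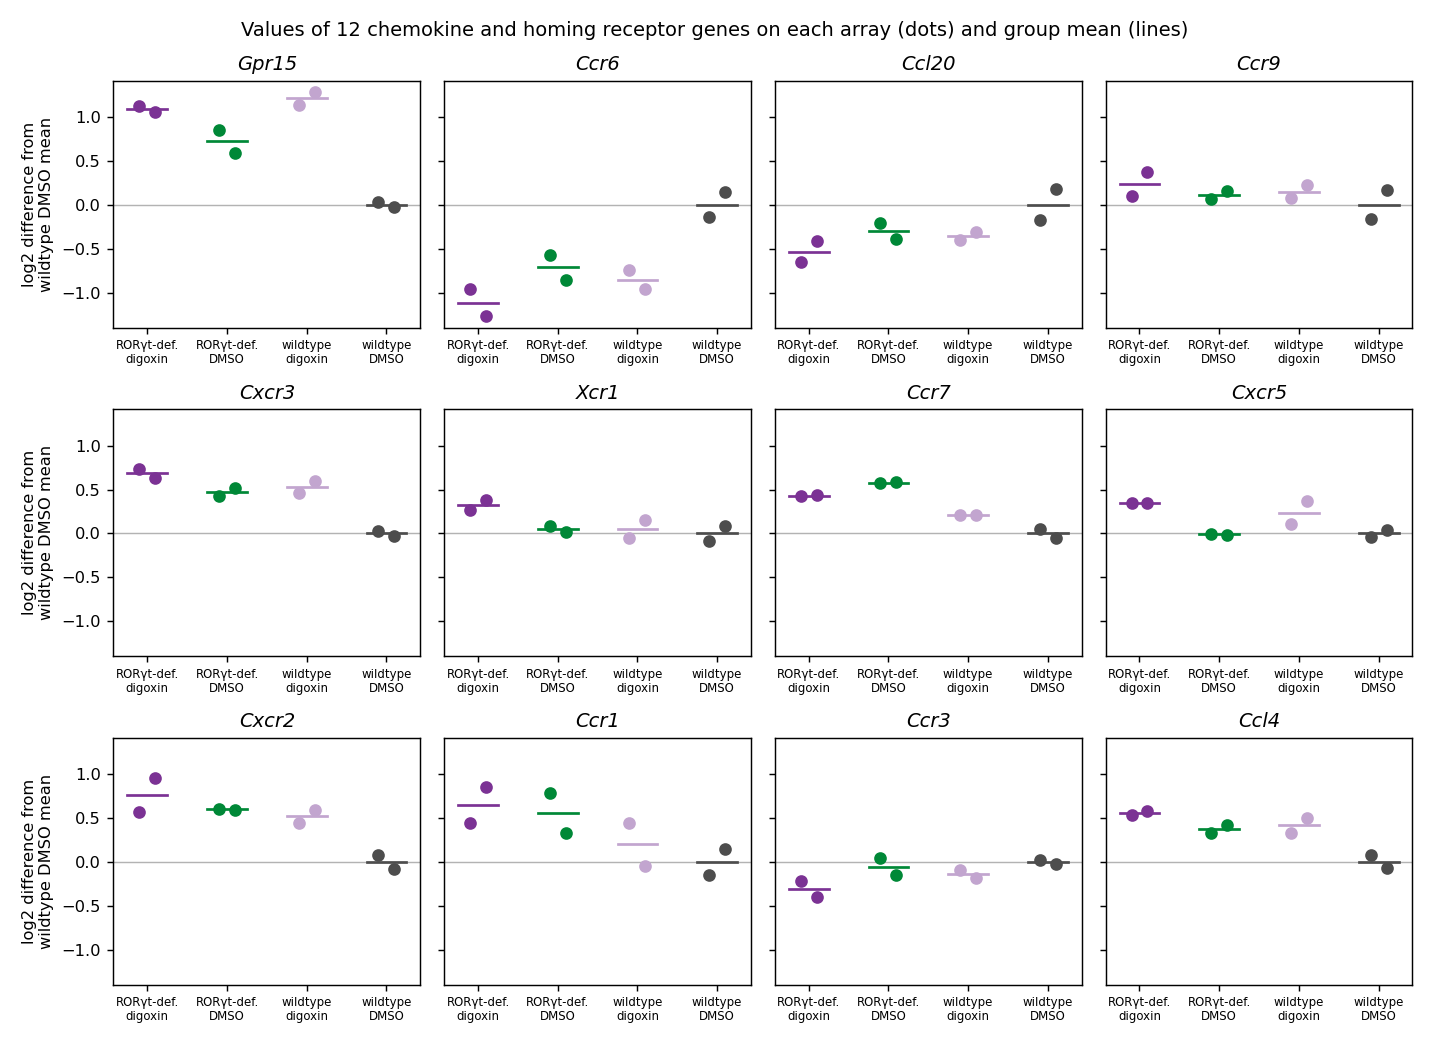
Values of 12 genes on each of the 8 arrays, as log2 differences from the wildtype DMSO mean, with dots for arrays and lines for group means. Gpr15, Cxcr3, Cxcr2 and Ccl4 lay above wildtype DMSO on all 6 other arrays and Ccr6 and Ccl20 below it, while the probe set used for Ccr9 overlapped.

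Of the 4 receptors listed as Th1-linked, Cxcr3 had the largest differences. Cxcr3, the receptor through which Th1 cells follow Cxcl9, Cxcl10 and Cxcl11, stood (1449925_at) at 0.74 and 0.63 in RORγt-deficient digoxin cells, 0.42 and 0.51 in RORγt-deficient DMSO cells, 0.46 and 0.60 in wildtype digoxin cells, and 0.03 and -0.03 in wildtype DMSO cells. All 6 arrays outside wildtype DMSO were higher than both of that group. It rose 1.61-fold in RORγt-deficient digoxin over wildtype DMSO cells (0.68 ± 0.11, adjusted p = 0.0139). The estimates for deficiency in DMSO (0.47 ± 0.11, adjusted p = 0.0934) and for digoxin in wildtype cells (0.53 ± 0.11, adjusted p = 0.166) were not called, and with the mean over probe sets in every gene, a setting that left the value of Cxcr3 as it was, the adjusted p of the first was 0.0488. Its ligands Cxcl9, Cxcl10 and Cxcl11 had estimates between -0.16 and 0.08 in these 2 comparisons.

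The other receptors of that list were not called. Cxcr6, the receptor of Cxcl16, lay higher without overlap for deficiency in DMSO (0.21 ± 0.13) and for digoxin in wildtype cells (0.24 ± 0.13), and at 0.02 ± 0.13 for digoxin in deficient cells. Xcr1 was placed in this list, though cross-presenting dendritic cells use it to sense Xcl1. It stood at 0.27 and 0.38 in RORγt-deficient digoxin cells, 0.08 and 0.02 in RORγt-deficient DMSO cells, -0.05 and 0.15 in wildtype digoxin cells, and -0.08 and 0.08 in wildtype DMSO cells. The RORγt-deficient digoxin arrays were above all others, by 0.28 ± 0.12 over RORγt-deficient DMSO cells (adjusted p = 1.00, unadjusted p = 0.0398). The estimates of Cx3cr1, the fractalkine receptor, lay between -0.06 and 0.08. Cxcr6, Xcr1 and Cx3cr1 all had their lowest level below 4.

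Some markers of other lymphocytes were also called in the comparisons in which Gpr15 or Cxcr3 was called. Of 8 measured markers of NK and innate lymphoid cells, limma called Klrd1 (1.38 ± 0.11) and Klrc1 (0.96 ± 0.18) higher for deficiency in DMSO and Klrd1 (1.36 ± 0.11) higher for digoxin in wildtype cells. In RORγt-deficient digoxin against wildtype DMSO cells, where Cxcr3 was called, it called Klrd1 (1.60 ± 0.11), Klrc1 (0.90 ± 0.18) and Klre1 (0.61 ± 0.10) higher. Of all genes it called 0.28%, 0.0715% and 0.528% as higher in these comparisons, in the order given. The mean of the 8 was 0.53 and 0.64 in RORγt-deficient digoxin cells, 0.47 and 0.50 in RORγt-deficient DMSO cells, 0.43 and 0.57 in wildtype digoxin cells, and 0.04 and -0.04 in wildtype DMSO cells. The defining NK marker Ncr1 had its lowest level below 4 and differed by 0.00 for deficiency in DMSO and 0.10 for digoxin in wildtype cells. Of 6 CD8 T cell markers, Klrk1 alone was called, for deficiency in DMSO (1.06 ± 0.16) and in RORγt-deficient digoxin against wildtype DMSO cells (1.32 ± 0.16). The mean of the 6, which includes Klrk1, was 0.27 and 0.30 in RORγt-deficient digoxin, 0.24 and 0.37 in RORγt-deficient DMSO, 0.19 and 0.23 in wildtype digoxin, and -0.05 and 0.05 in wildtype DMSO cells. The median of the 6 was 0.20 for deficiency in DMSO and 0.07 for digoxin in wildtype cells. In RORγt-deficient digoxin against wildtype DMSO cells it was 0.14, with 4 estimates above 0 and 2 below. The mean of 8 CD4 T cell markers was 0.27 and 0.18 in RORγt-deficient digoxin, 0.17 and 0.20 in RORγt-deficient DMSO, 0.16 and 0.15 in wildtype digoxin, and -0.04 and 0.04 in wildtype DMSO cells. Of 7 B cell and 2 gamma delta T cell markers measured, limma called none in any comparison. At an unadjusted p under 0.05, 2 of the B cell markers were higher for digoxin in wildtype cells, where 3.61% of all genes were. All 7 had estimates above 0 there, with a median of 0.17 against 0.01 over all genes. For RORγt-deficient digoxin against wildtype DMSO cells 1 B cell marker was higher at this threshold, where 7.44% of all genes were. The part of these markers in the differences of Gpr15 and Cxcr3 was not tested.

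Among the 5 genes of lymphoid tissue homing, Ccr7 alone was called, for deficiency in DMSO. Ccr7, the receptor for entry into lymph nodes, stood (1423466_at) at 0.42 and 0.44 in RORγt-deficient digoxin cells, 0.57 and 0.59 in RORγt-deficient DMSO cells, 0.21 and 0.21 in wildtype digoxin cells, and 0.05 and -0.05 in wildtype DMSO cells. The 4 groups were separated from one another, with both RORγt-deficient groups above both wildtype groups. It rose 1.49-fold for deficiency in DMSO (0.58 ± 0.10, adjusted p = 0.0255), and the digoxin estimates were -0.15 ± 0.10 in deficient cells (adjusted p = 1.00) and 0.21 ± 0.10 in wildtype cells (adjusted p = 0.739). For deficiency under digoxin the estimate was smaller than in DMSO, at 0.22 ± 0.10 (adjusted p = 0.908). RORγt-deficient DMSO cells stood 0.37 ± 0.10 above wildtype digoxin cells (adjusted p = 0.407, unadjusted p = 0.00427), the largest of the 35 estimates in that comparison above 0.

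Cxcr5, the receptor for B cell follicles, followed treatment in its estimates. It stood at 0.35 and 0.35 in RORγt-deficient digoxin cells, -0.005 and -0.01 in RORγt-deficient DMSO cells, 0.10 and 0.37 in wildtype digoxin cells, and -0.04 and 0.04 in wildtype DMSO cells. The digoxin arrays lay above the DMSO arrays in each genotype, by 0.36 ± 0.12 in deficient cells (adjusted p = 1.00, unadjusted p = 0.0113) and 0.24 ± 0.12 in wildtype cells (adjusted p = 0.746). Gpr183, an oxysterol receptor that positions activated lymphocytes, had estimates of -0.22 ± 0.10 for deficiency in DMSO (adjusted p = 0.49) and -0.15 ± 0.10 for digoxin in wildtype cells. For the 1 probe set used for each, Cxcr4 and its ligand Cxcl12 had estimates between -0.16 and 0.17 with overlapping groups in every comparison. The 3 probe sets of Cxcl12 spread from -0.12 to 0.20 for digoxin in wildtype cells and -0.08 to 0.27 in deficient cells. For RORγt-deficient DMSO against wildtype digoxin cells they spread from -0.34 to 0.17. A single unused probe set gave 0.20, 0.27 and -0.34, without overlap in the first and last of these comparisons. The -0.34 was not called in a fit over all probe sets (adjusted p = 0.972, unadjusted p = 0.0415).

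Of the 4 inflammatory and myeloid-linked receptors, Cxcr2 and Ccr1 had the largest differences. Cxcr2, through which neutrophils follow Cxcl1 and Cxcl2, stood (1421734_at) at 0.57 and 0.95 in RORγt-deficient digoxin cells, 0.61 and 0.60 in RORγt-deficient DMSO cells, 0.45 and 0.59 in wildtype digoxin cells, and 0.08 and -0.08 in wildtype DMSO cells. All 6 arrays outside wildtype DMSO lay above that group. It rose 1.70-fold in RORγt-deficient digoxin over wildtype DMSO cells (0.76 ± 0.14, adjusted p = 0.0266), while the estimates for deficiency in DMSO (0.60 ± 0.14, adjusted p = 0.0953) and digoxin in wildtype cells (0.52 ± 0.14, adjusted p = 0.396) were not called.

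Ccr1, a receptor of Ccl3 and Ccl5, was spread widely within groups and had its lowest level below 4. It stood (1419609_at) at 0.44 and 0.86 in RORγt-deficient digoxin cells, 0.79 and 0.33 in RORγt-deficient DMSO cells, 0.45 and -0.05 in wildtype digoxin cells, and -0.15 and 0.15 in wildtype DMSO cells. The deficient arrays lay above wildtype DMSO, and the wildtype digoxin arrays overlapped it. The estimate for deficiency in DMSO was 0.56 ± 0.21 (adjusted p = 0.384). Ccr2, which recruits cells to Ccl2, lay higher in deficient cells without overlap in DMSO (0.25 ± 0.13) and in digoxin (0.26 ± 0.13), and Ccrl2, an atypical receptor that binds chemerin, had estimates between -0.30 and 0.04 with overlapping groups.

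Of 12 myeloid and dendritic cell markers none was called by limma in any comparison. At an unadjusted p under 0.05 for deficiency in DMSO there were 1 higher, Itgax, and 1 lower, Fcgr3, where 4.25% of all genes were higher and 6.08% lower. For digoxin in wildtype cells there were 3 higher and 0 lower, where 3.61% of all genes were higher and 3.39% lower. In RORγt-deficient digoxin against wildtype DMSO cells, where Cxcr2 was called, 5 of the 12 had an unadjusted p under 0.05, all higher, where 7.44% of all genes were higher. The median of the 12 was 0.27 there, against 0.03 over all genes. Estimates were above 0 for 10 of them and below 0 for 2, Itgam (-0.20 ± 0.11) and Fcgr3 (-0.13 ± 0.12). The mean of the 12 was 0.15 and 0.29 in RORγt-deficient digoxin, 0.04 and 0.15 in RORγt-deficient DMSO, 0.04 and 0.23 in wildtype digoxin, and -0.01 and 0.01 in wildtype DMSO cells. Adgre1, Itgam, Tyrobp, Mpeg1 and Clec7a had their lowest level below 4. The part of such cells in the values of Cxcr2 and Ccr1 was not tested.

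The 6 genes of Th2 and regulatory T cell homing held no call in any comparison. Ccr4, the receptor of Ccl17 and Ccl22, had estimates of 0.31 ± 0.17 for deficiency in DMSO and 0.39 ± 0.17 for digoxin in wildtype cells (adjusted p = 0.713), but its wildtype DMSO arrays differed by more than this, at -0.32 and 0.32. Ccr3, the eotaxin receptor of eosinophils, stood at -0.22 and -0.40 in RORγt-deficient digoxin cells, 0.04 and -0.15 in RORγt-deficient DMSO cells, -0.09 and -0.18 in wildtype digoxin cells, and 0.02 and -0.02 in wildtype DMSO cells. The RORγt-deficient digoxin arrays were the lowest, at -0.31 ± 0.12 from wildtype DMSO cells (adjusted p = 0.251, unadjusted p = 0.0234). Ccr8 and its ligand Ccl1 had estimates between -0.12 and 0.12, Ccl22 between -0.01 and 0.12, and Ccl17 reached 0.32 ± 0.18 for digoxin in wildtype cells (adjusted p = 0.765).

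Among the 10 inflammatory chemokines, Ccl4 alone was called. Ccl4, which encodes an inflammatory chemokine of activated lymphocytes and macrophages, stood (1421578_at) at 0.53 and 0.58 in RORγt-deficient digoxin cells, 0.33 and 0.42 in RORγt-deficient DMSO cells, 0.33 and 0.50 in wildtype digoxin cells, and 0.07 and -0.07 in wildtype DMSO cells. All 6 arrays outside wildtype DMSO lay above it, and digoxin arrays lay above DMSO arrays in deficient cells as well. It rose 1.47-fold in RORγt-deficient digoxin over wildtype DMSO cells (0.55 ± 0.11, adjusted p = 0.043), and was not called for deficiency in DMSO (0.37 ± 0.11, adjusted p = 0.216) or digoxin in wildtype cells (0.42 ± 0.11, adjusted p = 0.398).

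Ccl3, a ligand of Ccr1, had an estimate of 0.51 ± 0.13 in RORγt-deficient digoxin against wildtype DMSO cells (adjusted p = 0.101). Ccl5, a chemokine that attracts T cells, stood in the opposite direction at -0.33 ± 0.11 for deficiency in DMSO (adjusted p = 0.281, unadjusted p = 0.0125), and was lower without overlap for digoxin in wildtype cells (-0.21 ± 0.11). The neutrophil attractant Cxcl2 had an estimate of 0.36 ± 0.18 for digoxin in wildtype cells and 0.01 ± 0.18 for deficiency in DMSO. Ccl9, Cxcl16, Xcl1, Cxcl9, Cxcl10 and Cxcl11 had estimates between -0.16 and 0.29 for deficiency in DMSO and digoxin in wildtype or deficient cells, and none was called in any comparison.

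Whether digoxin acted differently in the 2 genotypes was tested by the difference of its effects, deficient minus wildtype. limma called no gene at all (0%), and 2 of the 35 genes, Gpr15 and Ccr7, had an unadjusted p under 0.05, 5.71% against 3.09% of all genes. The difference for Gpr15 was -0.85 ± 0.17 (adjusted p = 1.00, unadjusted p = 0.000555), that for Ccr7 -0.36 ± 0.14 (adjusted p = 1.00, unadjusted p = 0.0292) and that for Ccr6 0.45 ± 0.22 (adjusted p = 1.00, unadjusted p = 0.0754). The digoxin effects in deficient and in wildtype cells share no arrays. Across the 35 genes they correlated with Pearson's r = 0.72 and Spearman's rho = 0.64, against 0.28 and 0.24 across all genes, and had the same sign in 28 of 35 genes (80%), against 59.2% of all genes. Genes are not independent replicates, so these are descriptions. The effect in deficient cells was the smaller in size for 25 of the 35 genes, and for 57.1% of all genes.

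**Figure D3:**
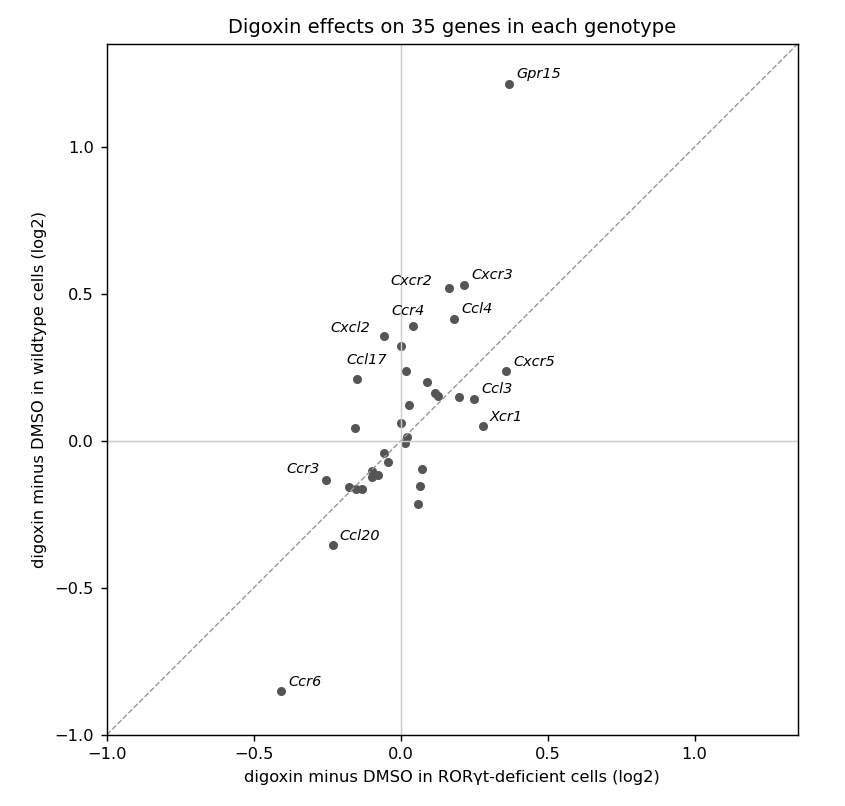
Digoxin minus DMSO in RORγt-deficient cells (horizontal axis) and in wildtype cells (vertical axis), as log2 differences, with 1 dot per gene for 35 genes and a dashed line where both are equal. Gpr15 lies at 0.37 and 1.21 and Ccr6 at -0.41 and -0.85, both farther from 0 in wildtype cells, while Cxcr5 and Xcr1 lie farther from 0 in deficient cells.

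RORγt deficiency under digoxin asks what the receptor adds once the compound is present. limma called none of the 35 genes, where it called 0.0055% of all genes, and 3 had an unadjusted p under 0.05, 8.57% against 5.51% of all genes. These were Ccl3 (0.36 ± 0.13, adjusted p = 0.789), Xcr1 (0.28 ± 0.12, adjusted p = 0.899) and Cxcl2 (-0.41 ± 0.18, adjusted p = 0.9). Ccr6 differed by -0.26 ± 0.16, Gpr15 by -0.12 ± 0.12 and Ccr7 by 0.22 ± 0.10 (adjusted p = 0.908). Groups did not overlap for 7 genes higher and 4 lower, where 17.4% and 13.6% of all genes were separated. The effects of deficiency under digoxin and in DMSO share no arrays either, and had the same sign in 26 of the 35 genes (74.3%), against 62.5% of all genes, with r = 0.54 and rho = 0.58 against 0.49 and 0.37.

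RORγt-deficient DMSO cells were last compared directly with wildtype digoxin cells, that is, loss of the receptor with treatment by the compound. limma called none of the 35 genes, where it called 0.0165% of all genes, and 2 had an unadjusted p under 0.05, 5.71% against 5.67% of all genes. Gpr15 stood lower in RORγt-deficient DMSO cells, by -0.49 ± 0.12 (adjusted p = 0.321, unadjusted p = 0.00226), and Ccr7 higher. Ccr6 differed by 0.14 ± 0.16, Cxcr3 by -0.06 ± 0.11, Ccl20 by 0.06 ± 0.14 and Ccl4 by -0.04 ± 0.11, with overlapping groups. Groups did not overlap for 5 genes higher and 5 lower, where 13.6% and 17% of all genes were separated.

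Gpr15, Ccr6, Ccl20, Cxcr3, Ccr7, Cxcr2 and Ccl4 had 1 probe set each, so their values could not be set against another, as was so for 23 of the 35 genes. In a fit over all 45037 probe sets, limma called 2 of the 53 for deficiency in DMSO and 1 for digoxin in wildtype cells, where it called 0.611% and 0.0622% of all probe sets. These were Gpr15 (adjusted p = 0.0331 and 0.00647) and Ccr7 (adjusted p = 0.0405, deficiency only). For deficiency in DMSO, the probe sets of Cxcl16 stood at 0.29 and -0.33, those of Ccr1 at 0.56 and 0.13, and the 4 of Ccr2 between 0.00 and 0.46. The second probe set of Cxcr6 was higher than the one used, at 0.45 for deficiency in DMSO and 0.51 for digoxin in wildtype cells, but was not called in either.

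**Figure D4:**
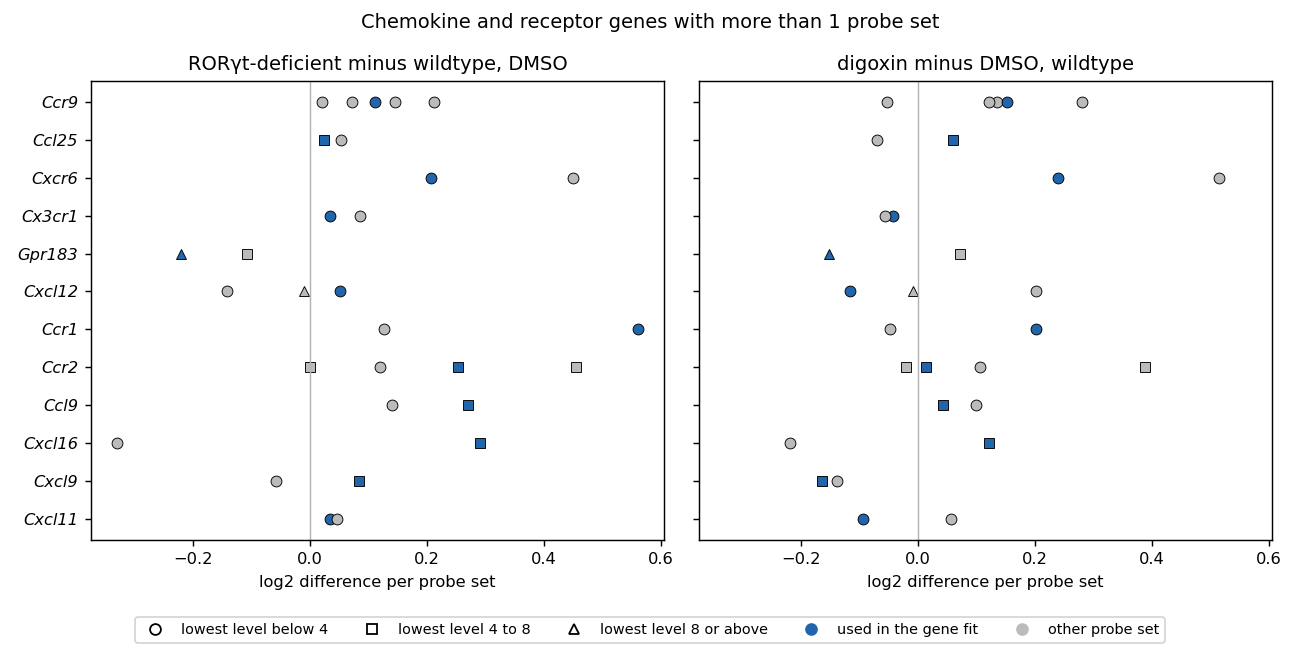
Every probe set of the 12 genes with more than 1, as log2 differences for RORγt-deficient minus wildtype cells in DMSO (left) and digoxin minus DMSO in wildtype cells (right), with shapes for the lowest level before centring and blue for the probe set used in the gene fit. The probe sets of Cxcl16 lie on both sides of 0 in both panels, and those of Ccr2 spread between 0.00 and 0.46 on the left.

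Chemokine genes and receptor genes lie in clusters, and 16 of the 35 genes stood in 5 runs with at most 10 protein-coding genes between neighbours in the RefSeq table. Neighbours did not share a direction in every run. In the run on chromosome 11, the estimates for deficiency in DMSO were -0.33 for Ccl5, 0.27 for Ccl9, 0.26 for Ccl3 and 0.37 for Ccl4. In the run of 6 receptor genes on chromosome 9, they were 0.11 for Ccr9, 0.21 for Cxcr6, 0.05 for Xcr1, 0.56 for Ccr1, -0.05 for Ccr3 and 0.25 for Ccr2.

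Genes of the same pathway outside the 35 were followed through 3 further lists. limma called none of 21 adhesion and egress genes, of 27 other chemokines and receptors and of 32 chemokine signalling genes in any of the 7 comparisons. At an unadjusted p under 0.05 for deficiency in DMSO there were 3 adhesion genes, all higher, 0 of the other chemokines and receptors, and 2 signalling genes higher and 4 lower, where 4.25% of all genes were higher and 6.08% lower. For digoxin in wildtype cells there were 2 adhesion genes higher and 1 lower, 0 of the other chemokines and receptors, and 1 signalling gene higher and 3 lower, where 3.61% of all genes were higher and 3.39% lower. The medians of the 3 lists for deficiency in DMSO were 0.07, 0.05 and -0.05, against 0.00 over all genes, and for digoxin in wildtype cells 0.03, 0.05 and -0.03, against 0.01. Examples chosen after their values were seen are Klf2, the transcription factor that maintains the egress receptor S1pr1, at 0.33 ± 0.12 for deficiency in DMSO and 0.31 ± 0.12 for digoxin in wildtype cells, and Pik3cg, the phosphoinositide 3-kinase that acts behind chemokine receptors, at 0.41 ± 0.11 and 0.31 ± 0.11. Pik3cg was the highest of the 32 signalling genes in both, where 21 and 18 of the 32 estimates lay below 0. The lowest were Prex1 (-0.38) for deficiency in DMSO and Rgs2 (-0.37) for digoxin in wildtype cells. Rgs1, which shortens chemokine receptor signals, stood at -0.26 ± 0.11 for digoxin in deficient cells and -0.35 ± 0.11 for digoxin in wildtype cells.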

How the data were processed

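Probe intensities were summarised with RMA, per the submitters' processing notes. The authors deposited a table of log2 values with 45101 probe sets, including 64 controls. For each probe set the values of both wildtype DMSO arrays summed to 0 within 1e-06. That the base is 2 rests on RMA. The ranges of the lowest level before centring were tested on 2000 simulated probe sets, of which 98.9% were placed correctly. Of the probe sets, 34945 had 1 gene symbol and were used, and 34741 of these matched the GRCm38.p6 RefSeq table. A gene with several was represented by 1, first by suffix (_at before _a_at, _s_at and _x_at) and next by identifier, since no absolute level was left.

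All 18193 genes were fitted with limma 3.58.1 in R 4.3.3, with 4 group means on 8 arrays and eBayes defaults (4 residual and 5.8 prior degrees of freedom, median SE of a difference 0.126). Tests were two-sided, with Benjamini-Hochberg adjustment over all genes and calls under 0.05. The fit was tested on simulated data with known differences, 67 genes for each size below. A log2 difference of 0.5 was called in 35.8% of them for deficiency in DMSO and 26.9% for digoxin in wildtype cells. For the difference of the digoxin effects it was called in 8.96%. A log2 difference of 1 was called in 100%, 97% and 76.1%, so an uncalled gene may still differ. Precision is limited by the number of arrays. The labels call arrays of a group biological replicates without naming animals or cultures, so p-values measure a spread that may be partly technical.

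The 35 genes, the lists and the tests were chosen with earlier results of these data known. Values on every array were given, by rule, for genes called in any comparison, for the 5 largest estimates in each of 3 comparisons, and for Ccr6, Ccl20, Ccr9, Gpr15, Cxcr3 and Ccr7. The alternatives were quantile normalisation, array medians at 0, only the compared groups, a replicate block, array weights, the mean over probe sets, genes with the lowest level at 4 or above, and leaving out each array. The crossed block and the comparison of RORγt-deficient digoxin with wildtype DMSO cells were added after seeing the data.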

Additional observations from a re-analysis of the deposited data

How the results depend on the processing

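Of 955 values of the 12 genes given by array under the alternatives, 889 kept their direction and their side of the threshold, 43 fell short of it, 8 newly passed it and 15 changed sign. The cause of these changes was not tested. All but 1 of the sign changes came from leaving out 1 array. Estimates for RORγt deficiency in DMSO then ranged from -0.054 to 0.276 for Ccr9, -0.037 to 0.131 for Xcr1, -0.148 to 0.041 for Ccr3 and -0.049 to 0.030 for Cxcr5. For digoxin in wildtype cells they ranged from -0.012 to 0.318 for Ccr9, -0.054 to 0.152 for Xcr1 and -0.046 to 0.449 for Ccr1, and for digoxin in deficient cells from -0.0097 to 0.262 for Ccr9, -0.139 to 0.319 for Ccr1 and -0.028 to 0.354 for Cxcr2. In RORγt-deficient DMSO against wildtype digoxin cells they ranged from -0.00061 to 0.285 for Ccr6 and -0.134 to 0.0082 for Cxcr3. Quantile normalisation turned Ccr6 to 0.042 for deficiency under digoxin.

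For deficiency in DMSO, 2 of the 35 genes and 191 of all genes were called. These counts were 0 and 3 with quantile normalisation, 0 and 95 with only the compared groups, 3 and 249 with the mean over probe sets, and 5 and 414 with the crossed replicate block. Leaving out 1 array gave 0 to 2 and 17 to 188. For digoxin in wildtype cells, with 1 and 22, they were 0 and 4 with quantile normalisation, 1 and 9 with only the compared groups, 1 and 35 with array weights, 1 and 40 with the mean over probe sets, 2 and 60 with the crossed block, and 0 to 1 and 6 to 23 without 1 array. For RORγt-deficient digoxin against wildtype DMSO cells, with 5 and 287, they were 0 and 10 with quantile normalisation and 7 and 783 with the crossed block, and 0 to 5 and 25 to 307 without 1 array. In the other 4 comparisons none of the 35 genes was called under any alternative. All genes called there for digoxin in deficient cells were 1, and 0 with quantile normalisation or a level at 4 or above. For deficiency under digoxin they were 1, and 0 with these 2 settings, 2 with the replicate block or the mean over probe sets, 27 with the crossed block and 0 to 2 without 1 array. For the difference of the digoxin effects they were 0, and 1 with quantile normalisation, array weights or the mean over probe sets, 2 with the crossed block and 0 to 1 without 1 array. For RORγt-deficient DMSO against wildtype digoxin cells they were 3, and 0 with quantile normalisation or only the compared groups, 1 with the replicate block, 50 with the crossed block and 0 to 1 without 1 array.

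Replicate numbers were not shown to pair the arrays. Deviations of same-numbered arrays correlated at -0.242 to -0.136 between wildtype DMSO and the other groups and at 0.325 to 0.454 among the others. The replicate block left the calls at 2, 1 and 5 of the 35 genes in the comparisons that had any, and the crossed block, with the wildtype DMSO numbers swapped, was chosen after seeing the data.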
